A study of Mus musculus with 12 samples.

Results

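Kupffer cells are the resident macrophages of the liver, and 10 genes that mark them were followed here in the livers of mice given an acute iron overload and the synthetic GC dexamethasone (DEX). The genes were Clec4f, Vsig4, Timd4, Cd5l, Marco, Adgre1, Csf1r, Cd163, Folr2 and Spic, and they were taken by symbol from the 55414 Ensembl genes of the count table. All 10 were found, each under 1 Ensembl identifier, and all 10 passed the filter on low counts that left 13857 genes for testing. Bulk RNAseq had been made from the livers of 12 female C57BL/6J mice in 4 groups of 3, with no other genotype. NaCl/PBS mice received 0.9% NaCl i.p. and PBS i.p. 6 h later, and NaCl/DEX mice received 0.9% NaCl and then 10 mg/kg DEX. FeSO4/PBS mice received 300 mg/kg FeSO4 and then PBS, and FeSO4/DEX mice received 300 mg/kg FeSO4 and then 10 mg/kg DEX. Tissue was collected 8 h after the start, which left 2 h for DEX or PBS to act. Whole liver was sequenced and no cells were sorted, so the reads of a gene came from every cell of the tissue that transcribed it.

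Kupffer cells line the liver sinusoids, where they bind and engulf particles, bacteria, dying cells and aged erythrocytes, and they return the iron of hemoglobin to the blood. Their survival depends on signalling through the receptor encoded by Csf1r, whose ligands are the products of Csf1 and Il34. Signals from sinusoidal endothelial cells, stellate cells and hepatocytes maintain the transcription factors that set their identity. DEX binds the GC receptor, which is present in macrophages as well as in hepatocytes.

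The libraries held 16335651 to 23827340 reads assigned to genes (median 19602514). Of these, 2581 to 11762 reads per library fell on the 10 markers together. Values below are normalized counts, meaning reads scaled with edgeR's TMM factors to a common library size, and each group had n = 3 mice. No library was a copy of another: chi-square statistics per gene between mice treated alike were 18.3 to 89.5, and each library was counted as 1 mouse. The 12 hepatocyte markers summed to between 2491000 and 3625000 normalized counts per library, against 3508 to 9956 for the Kupffer cell markers. These sums depend on which genes were listed and do not measure the macrophage share of the RNA.

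Levels between genes were compared per kb of annotated exon, in the NaCl/PBS mice, on the GRCm39 annotation. Cd5l (ENSMUSG00000015854, chr3:87265182-87278380, plus strand), a secreted scavenger-type protein that supports macrophage survival, stood highest with 1224 ± 65.7 (SD, n = 3) normalized counts per kb. Clec4f (ENSMUSG00000014542, chr6:83621524-83633169, minus strand), a C-type lectin found in rodent liver almost solely on Kupffer cells, followed with 597 ± 91.0 per kb. Vsig4 (ENSMUSG00000044206, chrX:95290807-95337044, minus strand), a receptor for complement C3 fragments, had 473 ± 46.4 per kb. Marco (ENSMUSG00000026390, chr1:120402267-120432753, minus strand), a class A scavenger receptor for bacteria and particles, had 404 ± 213 per kb and the widest spread of these 4 genes.

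The other 6 markers lay lower. Csf1r (ENSMUSG00000024621, chr18:61229714-61266535, plus strand), the growth factor receptor, had 187 ± 18.4 normalized counts per kb. Adgre1 (ENSMUSG00000004730, chr17:57665573-57790527, plus strand), which encodes the macrophage antigen F4/80, had 147 ± 17.7 per kb. Folr2 (ENSMUSG00000032725, chr7:101489195-101506401, minus strand), a folate receptor of resident macrophages, had 145 ± 23.2 per kb. The ranges of Adgre1 and Folr2 overlapped, so that these neighbours in the order did not differ beyond their spread. The same was true of Cd163 (ENSMUSG00000008845, chr6:124281606-124307560, plus strand), the receptor for hemoglobin bound to haptoglobin, at 110.2 ± 39.1 per kb, and of Marco against Vsig4 and Clec4f. Timd4 (ENSMUSG00000055546, chr11:46701620-46735177, plus strand), a phosphatidylserine receptor of long-lived resident macrophages, had 46.6 ± 7.45 per kb. Spic (ENSMUSG00000004359, chr10:88510629-88520960, minus strand), an ETS-family transcription factor induced by heme in macrophages, was lowest at 16.6 ± 13.3 per kb, and only 11 to 141 reads per library stood behind it.

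**Figure D1:**
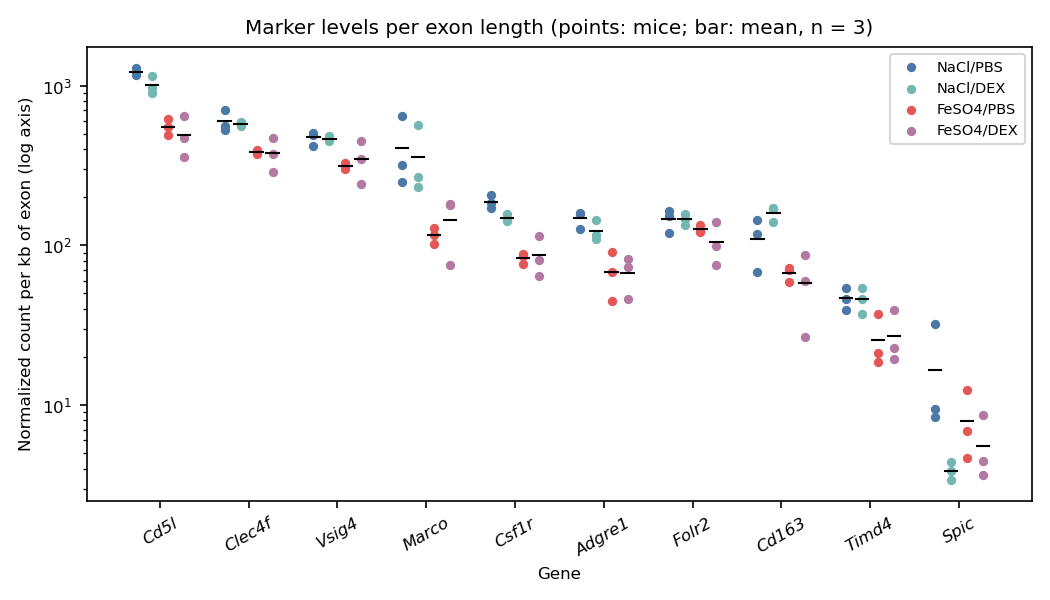
Normalized counts per kb of exon (log axis) of the 10 Kupffer cell markers, ordered by their NaCl/PBS mean. Points are single mice in the 4 groups and bars are group means (n = 3). Cd5l was highest and Spic lowest in each group, and the FeSO4 points of Cd5l, Clec4f, Csf1r and Marco lie under their NaCl points.

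Of the markers, 2 share exon bases with a gene on the other strand. Csf1r shares 1461 exon bases with Hmgxb3, which had 232 to 430 reads per library, and Folr2 shares 975 with Gm10602, which had 1 to 28. The libraries were stranded, but the strand setting of the deposited counts is not given in the sources used here, so reads in those stretches may have been assigned to either gene or dropped.

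Sequences upstream of the markers are shown because 2 families of regulators bear on these genes. PU.1 and Spi-C, the product of Spic, bind DNA with the core letters GAGGAA, and the GC receptor binds half-sites with the letters AGAACA. The set of RefSeq promoters used here held 8 of the 10 markers in 9 windows, on build GRCm38.p6 rather than the build of the counts. The 250 bases before each start were searched on both strands. Adgre1 and Csf1r had no window in this set. The motif GAGGAA was found in 3 of 9 windows, those of Vsig4, Cd5l and Marco, against 23.3% of 32851 windows of the same length genome-wide. AGAACA was found in 3 of 9 windows, those of Clec4f, Cd163 and 1 of the 2 Folr2 windows, against 16.1%. The letters TGANTCA of AP-1 type sites were found in 1 of 9 windows (6.75% genome-wide), and TGACNNNGC, the letters of antioxidant response elements, in 2 of 9 (10.2%), with no overlap between matches of different motifs. The Timd4 and Spic windows held none of the 4 motifs. A match here is a run of letters and was not tested as a bound site. Vsig4, Cd5l and Marco, with a GAGGAA match, were called lower after FeSO4, and so were Clec4f and Timd4 without one. Cd163, Folr2 and Spic, also without a match, were not called. Of all genes, 27.3% were called lower. Of the genes with AGAACA, none was called after DEX in NaCl mice, with LFCs of 0.54 for Cd163 (edgeR FDR 0.3), -0.05 for Clec4f and 0 for Folr2. A link between match and response was not tested. The 3 windows with GAGGAA and the Cd163 window with AGAACA read 5′ to 3′ as follows, with the match in capitals on whichever strand it lies (TTCCTC and TGTTCT are GAGGAA and AGAACA on the opposite strand).
Vsig4, chrX:96293439-96293688, minus strand: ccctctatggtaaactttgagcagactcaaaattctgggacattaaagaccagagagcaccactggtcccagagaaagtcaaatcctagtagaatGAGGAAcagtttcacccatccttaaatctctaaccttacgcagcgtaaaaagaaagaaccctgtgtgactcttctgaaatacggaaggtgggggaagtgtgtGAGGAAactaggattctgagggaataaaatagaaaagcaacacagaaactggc
Cd5l, chr3:87357631-87357880, plus strand: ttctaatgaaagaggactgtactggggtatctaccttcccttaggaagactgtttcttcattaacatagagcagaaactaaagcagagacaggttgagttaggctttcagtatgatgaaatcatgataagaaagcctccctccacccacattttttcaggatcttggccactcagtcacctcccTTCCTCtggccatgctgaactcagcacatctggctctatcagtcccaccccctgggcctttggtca
Marco, chr1:120505025-120505274, minus strand: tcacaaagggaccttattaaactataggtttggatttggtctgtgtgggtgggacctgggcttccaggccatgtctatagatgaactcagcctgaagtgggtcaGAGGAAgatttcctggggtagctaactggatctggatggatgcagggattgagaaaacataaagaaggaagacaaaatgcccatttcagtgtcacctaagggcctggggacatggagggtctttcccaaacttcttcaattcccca
Cd163, chr6:124304401-124304650, plus strand: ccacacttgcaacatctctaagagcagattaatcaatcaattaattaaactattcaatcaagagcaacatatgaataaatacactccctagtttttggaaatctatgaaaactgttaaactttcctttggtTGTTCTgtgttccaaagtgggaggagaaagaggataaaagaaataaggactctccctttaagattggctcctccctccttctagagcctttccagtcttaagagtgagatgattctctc

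The first comparison, FeSO4/PBS against NaCl/PBS, asked how acute iron overload without DEX altered the markers. FeSO4 lowered 7 of the 10 Kupffer cell markers, namely Clec4f, Vsig4, Timd4, Cd5l, Marco, Adgre1 and Csf1r, and raised none (edgeR FDR of 0.05 or less). Over all genes, 27.3% were lower and 27.2% were higher by the same test. The LFCs of the 10 markers ran from -1.81 for Marco to -0.20 for Folr2, with a median of -0.95 against -0.02 over all 13857 genes. Of the 7 lowered markers, Cd5l, Marco, Adgre1 and Csf1r also had an LFC below -1, and 14.7% of all genes met both conditions. In bulk liver, fewer Kupffer cells and less marker RNA per Kupffer cell cannot be told apart. The summed level of the 10 markers was 417 to 502 CPM in NaCl/PBS mice and 225 to 263 in FeSO4/PBS mice.

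Among the receptors that define Kupffer cells, Clec4f stood at 2070, 1960 and 2590 normalized counts in the NaCl/PBS mice and at 1449, 1371 and 1460 in the FeSO4/PBS mice. All 3 FeSO4/PBS mice lay under all 3 NaCl/PBS mice, at 64.7% of the control level on average (LFC -0.63, SE 0.15, edgeR FDR 0.0031). Vsig4, the complement receptor, stood at 730.1, 625 and 754 in NaCl/PBS mice and at 444, 476 and 487 in FeSO4/PBS mice. Its groups did not overlap either, and its LFC was -0.58 (SE 0.17, edgeR FDR 0.0093). Timd4 had 156, 215 and 183 normalized counts in NaCl/PBS mice and 73.6, 83.4 and 148 in FeSO4/PBS mice. FeSO4/PBS mouse 3 came close to the lowest control. The Timd4 LFC was -0.87 (SE 0.29, edgeR FDR 0.02), and the call was lost without NaCl/PBS mouse 2 (edgeR FDR 0.07), FeSO4/PBS mouse 1 (0.081) or FeSO4/PBS mouse 2 (0.072).

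Folr2, unlike these 3 receptors, was not called, and whether its LFC differed from theirs was not tested. It stood at 243, 189.8 and 261 normalized counts in NaCl/PBS mice and at 194, 195 and 214 in FeSO4/PBS mice. The groups overlapped, and the LFC was -0.20 with a 95% interval from -0.62 to 0.21 (edgeR FDR 0.39). This interval holds the LFC of Vsig4 (-0.58) but not those of Clec4f (-0.63) and Timd4 (-0.87).

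Among the scavenger proteins, Cd5l fell from 2474, 2380 and 2644 normalized counts to 1005, 1117 and 1266, an LFC of -1.15 (SE 0.18, edgeR FDR 9.8e-05). The highest FeSO4/PBS mouse had about 1114 fewer normalized counts than the lowest NaCl/PBS mouse. Marco fell from 477, 1245 and 612 to 196, 224 and 247, an LFC of -1.81 (SE 0.41, edgeR FDR 0.002). NaCl/PBS mouse 2 stood far above the other two controls for Marco, and without it the LFC was -1.29 (edgeR FDR 0.011). Cd163, which clears hemoglobin, stood at 376, 656 and 802 in NaCl/PBS mice and at 328, 399 and 389 in FeSO4/PBS mice. NaCl/PBS mouse 1 lay within the FeSO4/PBS range, and the LFC of -0.72 (SE 0.32) did not pass the test (edgeR FDR 0.073), although it did without NaCl/PBS mouse 1 (LFC -0.97, edgeR FDR 0.021), without FeSO4/DEX mouse 1 (0.042) or 2 (0.02), and with the 2 groups fitted alone (0.038).

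The growth factor receptor Csf1r had 1254, 1352 and 1523 normalized counts in NaCl/PBS mice and 564, 631 and 652 in FeSO4/PBS mice. Its LFC of -1.16 (SE 0.16) had the lowest FDR of the 10 markers (edgeR FDR 5e-05), and FeSO4/PBS mice held 44.7% of the control level. Adgre1 had 447, 557 and 552 in NaCl/PBS mice and 157, 238 and 320.1 in FeSO4/PBS mice. It had an LFC of -1.13 (SE 0.24, edgeR FDR 0.0012). Its groups did not overlap, although the FeSO4/PBS mice differed among themselves by up to 163 normalized counts. The transcription factor Spic had 38.8, 132 and 34.7 in NaCl/PBS mice and 51.4, 28.5 and 19.1 in FeSO4/PBS mice. The groups overlapped, and the LFC of -1.02 (SE 0.51, edgeR FDR 0.1) rested on NaCl/PBS mouse 2, without which it was -0.14 (edgeR FDR 0.81), while it was called without NaCl/PBS mouse 3 (-1.34, edgeR FDR 0.045) or FeSO4/PBS mouse 1 (-1.49, edgeR FDR 0.043).

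In all, 7 markers had FeSO4/PBS mice that lay entirely under the NaCl/PBS mice, and the same was true of 31% of all genes. No marker lay entirely above, as 29% of all genes did. Within each single mouse, the median log2 ratio of the 10 markers to their NaCl/PBS means was -1.09, -1.12 and -0.67 in FeSO4/PBS mice 1, 2 and 3. Each of these 3 mice had all 10 markers below the NaCl/PBS mean. In NaCl/PBS mice 1, 2 and 3 the medians were -0.17, 0.04 and 0.10, with 8, 5 and 3 markers below that mean. In NaCl/DEX mice 1, 2 and 3, 8, 6 and 8 markers lay below it. The share of all genes below it in each mouse was not computed.

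**Figure D2:**
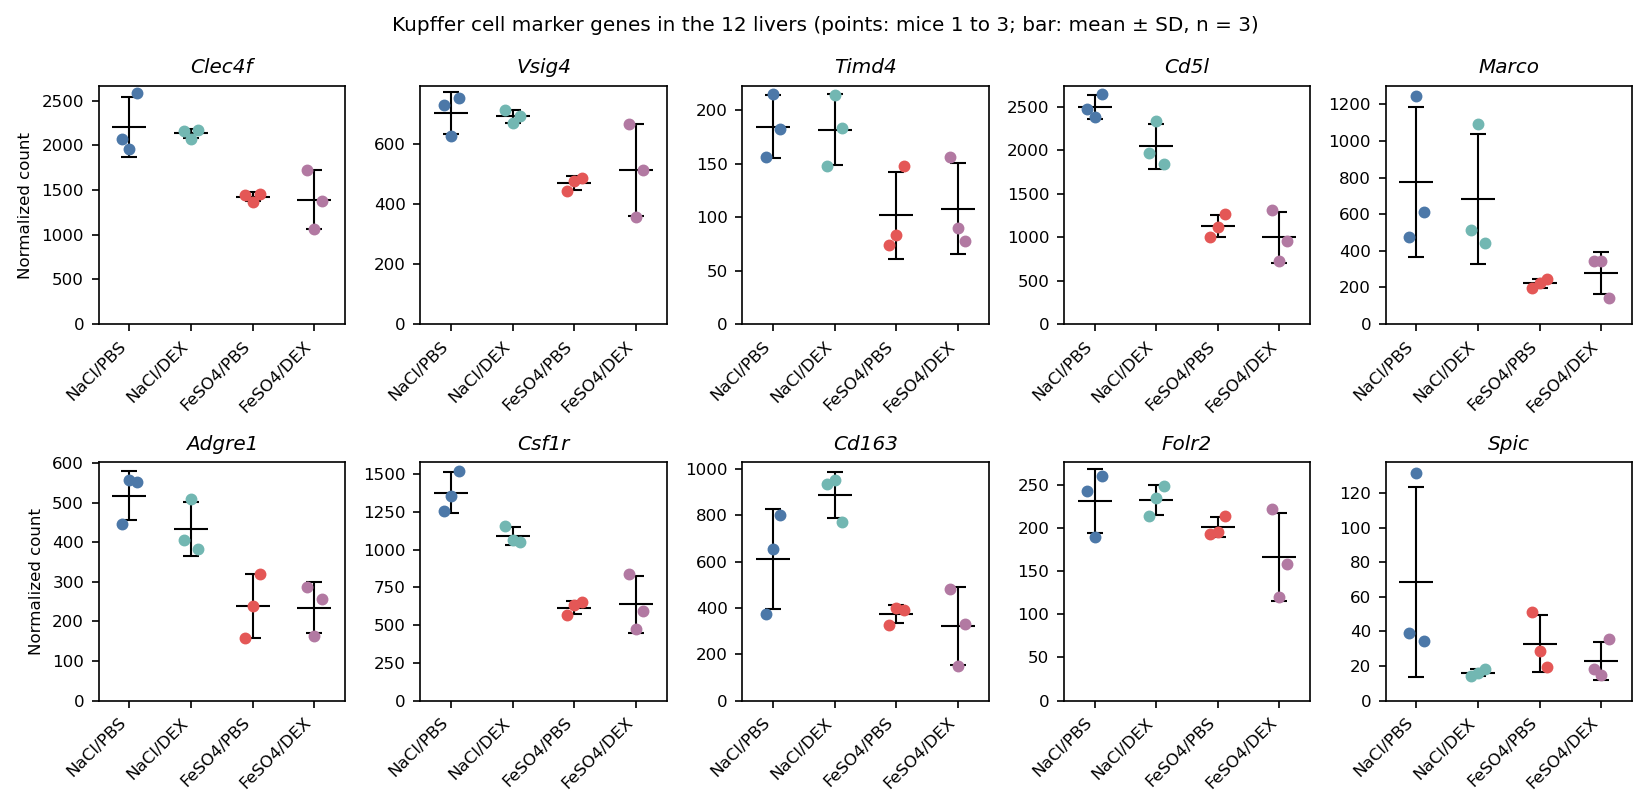
Normalized counts of each Kupffer cell marker (linear axis from 0) in the 12 livers. Points are mice 1 to 3 of each group and black bars are the mean ± SD (n = 3). The FeSO4/PBS points lie under the NaCl/PBS points for 7 genes, and NaCl/PBS mouse 2 stands apart for Marco (1245) and Spic (132).

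Relative to Clec4f in the same mouse, a ratio that library scaling does not alter, Csf1r went from 0.628 ± 0.0544 (SD, n = 3) in NaCl/PBS mice to 0.432 ± 0.0374 in FeSO4/PBS mice. The highest Csf1r ratio after FeSO4 (0.46) was under the lowest control ratio (0.588). The ratio of Cd5l to Clec4f went from 1.14 ± 0.106 to 0.792 ± 0.0892, also without overlap. The Folr2 ratio was 0.105 ± 0.011 in NaCl/PBS and 0.141 ± 0.00674 in FeSO4/PBS mice, where the lowest ratio (0.134) was above the highest control ratio (0.117). The ratio of Vsig4 was 0.321 ± 0.0308 and 0.329 ± 0.021, with overlap. All Marco ratios in FeSO4/PBS mice (0.135 to 0.169) lay under those in NaCl/PBS mice (0.23 to 0.635). Ratios of Timd4, Adgre1, Cd163 and Spic overlapped between the groups. In FeSO4/DEX against NaCl/DEX mice, the ratios of Cd5l (0.678 to 0.757 against 0.847 to 1.13) and Cd163 (0.139 to 0.279 against 0.355 to 0.46) lay entirely lower. Those of Vsig4 (0.335 to 0.384 against 0.318 to 0.331) and Spic (0.0106 to 0.026 against 0.00646 to 0.00834) lay entirely higher. The ratios of Csf1r (0.432 to 0.485 against 0.483 to 0.536), Folr2 (0.112 to 0.128 against 0.099 to 0.114) and Marco (0.105 to 0.324 against 0.204 to 0.526) overlapped, as did those of Timd4 and Adgre1. Clec4f itself had an LFC of -0.63 after FeSO4, so a gene that fell less, such as Folr2 (-0.20), had a higher ratio. In level, 31% of all genes lay entirely lower and 29% entirely higher in FeSO4/PBS mice. The share of all genes with ratios that lay apart was not computed. No test was run on the ratios, and they are given as a description.

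The second comparison, NaCl/DEX against NaCl/PBS, asked what 2 h of DEX did to the markers without iron overload. Spic was the only marker called, and it was lower (10 markers: 1 lower, 0 higher), where 7.15% of all genes were lower and 6.5% higher. Spic went from 38.8, 132 and 34.7 normalized counts in NaCl/PBS mice to 13.95, 15.98 and 18.1 in NaCl/DEX mice. The groups did not overlap, and the LFC was -2.07 (SE 0.54, edgeR FDR 0.02), or 23.8% of the control level. An LFC below -1 with an FDR of 0.05 or less was met by 3.41% of all genes. Only 13 to 18 reads per NaCl/DEX library stood behind it. The call was lost without NaCl/PBS mouse 2 (LFC -1.18, edgeR FDR 0.13) and without NaCl/DEX mouse 1 (0.073), 2 (0.065) or 3 (0.059). NaCl/PBS mouse 2 also had the highest control medians of neutrophil markers (0.62, against -0.34 and -0.57 on the log2 scale) and of macrophage activation genes (0.70, against -0.62 and -0.70), and their part in the Spic and Marco values was not tested.

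The other 9 markers did not pass the test after DEX, and their LFCs ran from -0.34 to 0.54. Cd163, which GCs are known to induce in macrophages, had the largest positive LFC. It stood at 376, 656 and 802 normalized counts in NaCl/PBS mice and at 933, 953 and 771 in NaCl/DEX mice. NaCl/DEX mouse 3 lay under the highest control, and the LFC was 0.54 (SE 0.31, edgeR FDR 0.3), with a 95% interval from -0.13 to 1.21. Csf1r had 1156, 1064 and 1050 in NaCl/DEX mice, each under the lowest control at 1254, with an LFC of -0.34 (SE 0.16, edgeR FDR 0.2). Cd5l had 1969, 2336 and 1840, each under the lowest control at 2380, with an LFC of -0.29 (SE 0.17, edgeR FDR 0.32). These 2 genes and Spic were the 3 markers whose NaCl/DEX mice all lay under the controls, and 20.3% of all genes did so. No marker had all NaCl/DEX mice above the controls, as 17.6% of all genes had.

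The remaining 6 markers had LFCs between -0.26 (Adgre1) and 0.00 (Folr2) after DEX in NaCl mice. Clec4f had 2159, 2072 and 2173 normalized counts in NaCl/DEX mice, and its 95% interval ran from -0.37 to 0.28. Vsig4 had 714, 668 and 692, with an interval from -0.38 to 0.33. For these 2 genes a fall as large as after FeSO4 (-0.63 and -0.58) lay outside the interval. Marco had 515, 1090 and 444 in NaCl/DEX mice, with a wide interval from -1.01 to 0.65.

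The third comparison, FeSO4/DEX against FeSO4/PBS, asked what DEX did to the markers in iron-overloaded mice. No marker was called in either direction (0 of 10), and no gene of the 13857 was called (0%). At an unadjusted p under 0.05, the edgeR quasi-likelihood test gave 0 markers and 900 genes over both directions, and DESeq2 called 0 markers. The LFCs ran from -0.53 (SE 0.55) for Spic to 0.33 (SE 0.42) for Marco, with a median of -0.02. Intervals were narrowest for Clec4f (-0.36 to 0.29) and widest for Spic (-1.72 to 0.65). In all 10 markers, the FeSO4/DEX and FeSO4/PBS mice overlapped, where 4.85% of all genes lay entirely lower and 4.45% entirely higher.

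The FeSO4/DEX mice were spread widely and in a shared order. Mouse 1 had the highest value of the 3 mice for Clec4f (1731, 1068 and 1375 normalized counts in mice 1, 2 and 3), Vsig4 (665, 358 and 514), Cd5l (1310, 724 and 956), Csf1r (840, 476 and 593), Cd163 (483, 148 and 331), Adgre1 (287, 163 and 256) and Folr2 (221, 119.6 and 158). Mouse 2 had the lowest value for each of these 7 genes. They were read in the same 3 livers, and the share of all genes in this order was not computed. Marco (346, 347 and 144), Timd4 (157, 89.7 and 77.3) and Spic (18.4, 14.95 and 35.7) did not follow this order. The sinusoidal endothelial cell markers followed it too, with medians of -0.17, -1.03 and -0.67 relative to the NaCl/PBS mean (log2) in mice 1, 2 and 3, and their part in the spread was not tested.

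The difference between the DEX responses of FeSO4 and NaCl mice, tested as an interaction, was called for 0 of 10 markers, where 2.99% of all genes were higher and 3.2% lower. At an unadjusted p under 0.05, edgeR gave 0 markers and 2830 genes, and DESeq2 called 0 markers. The difference was largest for Spic (1.54, SE 0.78, edgeR FDR 0.28), followed in size by Cd163 (-0.74, SE 0.45, edgeR FDR 0.39), Marco (0.51, SE 0.57, edgeR FDR 0.66) and Csf1r (0.39, SE 0.23, edgeR FDR 0.37). The Spic interval ran from -0.13 to 3.21, so that a response differing between FeSO4 and NaCl mice was neither shown nor bounded closely.

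**Figure D3:**
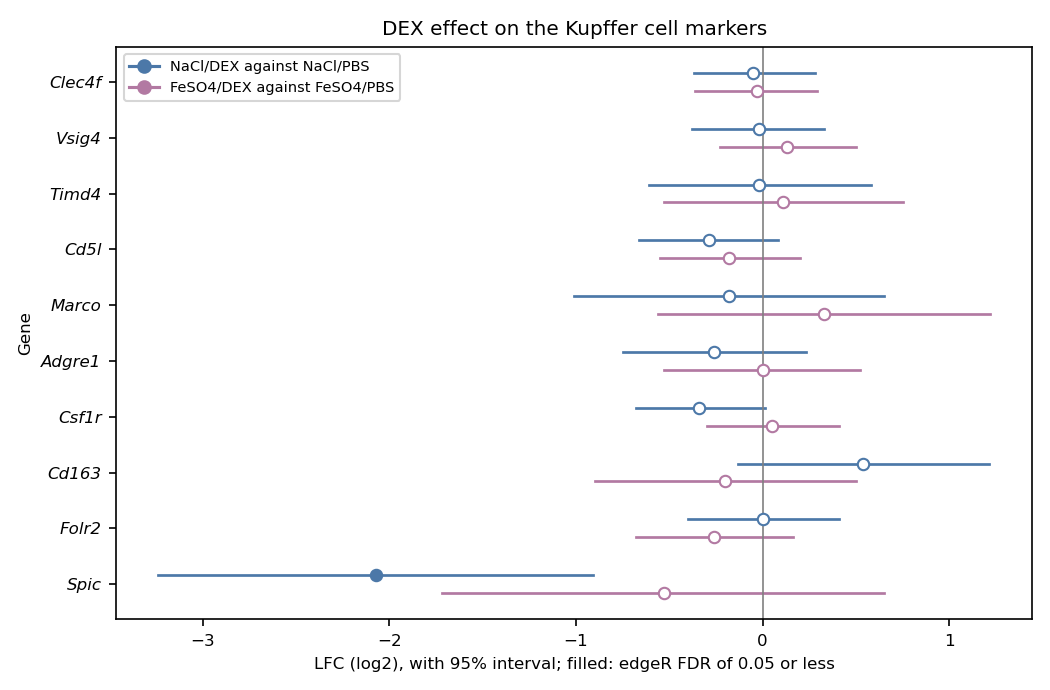
LFC (log2) of each marker after DEX, in NaCl mice and in FeSO4 mice, with 95% intervals. Filled points have an edgeR FDR of 0.05 or less. Spic in NaCl mice (-2.07) is the only filled point.

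The fourth comparison, FeSO4/DEX against NaCl/DEX, asked whether FeSO4 altered the markers in mice that also received DEX. It shares no library with the first comparison. FeSO4 lowered 6 markers, Clec4f, Cd5l, Marco, Adgre1, Csf1r and Cd163, and raised none, where 20.9% of all genes were lower and 22.4% higher. The median LFC of the markers was -0.76 against 0.01 over all genes, and 3 markers had an LFC below -1 beside passing the test (9.83% of all genes). In 7 markers all FeSO4/DEX mice lay under all NaCl/DEX mice, as in 27.1% of all genes, and in 0 they lay above, as in 28.8%.

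Cd163 had the largest fall in the DEX-treated mice. It stood at 933, 953 and 771 normalized counts in NaCl/DEX mice and at 483, 148 and 331 in FeSO4/DEX mice, an LFC of -1.45 (SE 0.32, edgeR FDR 0.0024). Marco went from 515, 1090 and 444 to 346, 347 and 144, an LFC of -1.29 (SE 0.4, edgeR FDR 0.019). This call was lost without NaCl/DEX mouse 2 (LFC -0.78, edgeR FDR 0.13) or FeSO4/DEX mouse 3 (LFC -1.01, edgeR FDR 0.07). Cd5l went from 1969, 2336 and 1840 to 1310, 724 and 956, an LFC of -1.04 (SE 0.18, edgeR FDR 0.00032). Adgre1 went from 406, 510.5 and 383 to 287, 163 and 256, an LFC of -0.87 (SE 0.24, edgeR FDR 0.0089).

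Csf1r went from 1156, 1064 and 1050 normalized counts in NaCl/DEX mice to 840, 476 and 593 in FeSO4/DEX mice, an LFC of -0.77 (SE 0.16, edgeR FDR 0.0018). Clec4f had an LFC of -0.62 (SE 0.15, edgeR FDR 0.005), beside -0.63 in the mice without DEX. The 3 markers nearest to the threshold were Timd4 (LFC -0.74, edgeR FDR 0.052), Vsig4 (-0.43, edgeR FDR 0.054) and Folr2 (-0.47, edgeR FDR 0.066). Timd4 stood at 148, 214 and 183 in NaCl/DEX mice and at 157, 89.7 and 77.3 in FeSO4/DEX mice, and Folr2 at 214, 234 and 249 against 221, 119.6 and 158, so that FeSO4/DEX mouse 1 lay within the NaCl/DEX range for both. Without FeSO4/DEX mouse 1, the FDRs of Timd4, Vsig4 and Folr2 were 0.0085, 0.0041 and 0.0068, and 9 markers were called in place of 6. The count was also 9 without FeSO4/PBS mouse 1, which enters this comparison only through the shared estimate of spread. Spic stood at 13.95, 15.98 and 18.1 against 18.4, 14.95 and 35.7, with an LFC of 0.52 (SE 0.59, edgeR FDR 0.51).

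**Figure D4:**
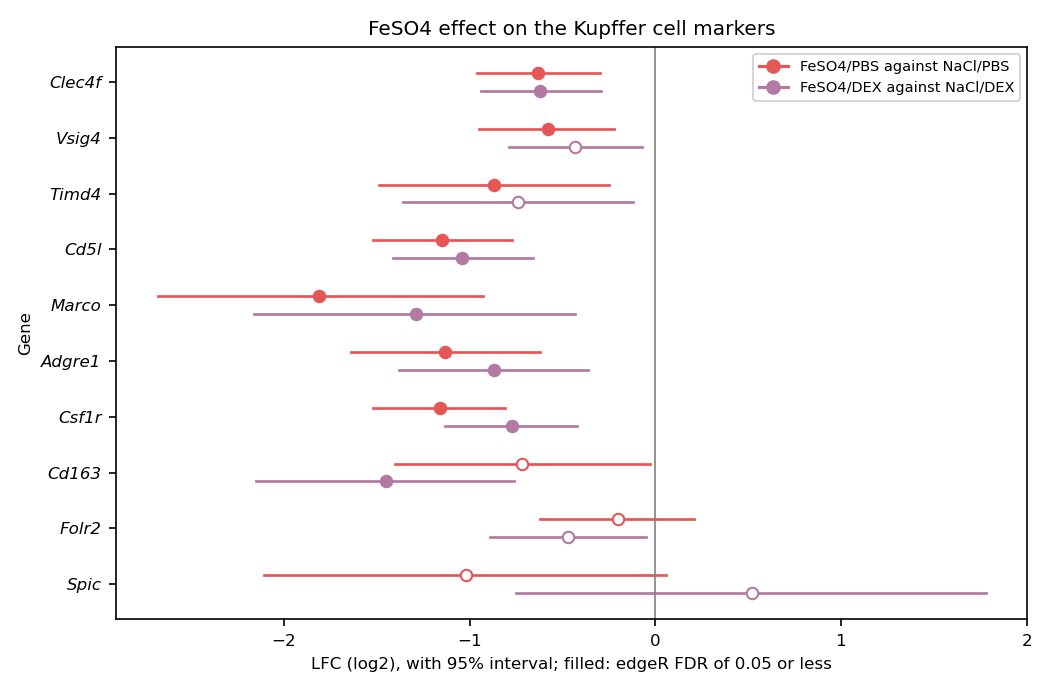
LFC (log2) of each marker after FeSO4, in mice without DEX and in mice with DEX, with 95% intervals. Filled points have an edgeR FDR of 0.05 or less, 7 in the mice without DEX and 6 in the mice with DEX. Every point except Spic in DEX-treated mice lies under 0.

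Across the 12 libraries, each marker's level was compared with the mean standardized level of the other 9, as a description over libraries that share treatment and RNA. Pearson's r was 0.98 for Cd5l, 0.97 for Csf1r, 0.95 for Clec4f, 0.94 for Adgre1, 0.90 for Vsig4, 0.86 for Timd4, 0.83 for Cd163, 0.75 for Folr2, 0.74 for Marco and 0.12 for Spic. After group means were taken away, Cd5l (0.93), Csf1r (0.92) and Cd163 (0.88) still varied with the other markers from mouse to mouse, while Marco (0.11) and Spic (-0.16) did not. Of the 45 pairs of markers, Vsig4 and Folr2 had the highest r within groups (0.93).

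The 8 genes outside the list whose log2 CPM followed the mean of the markers most closely over the 12 libraries were Zfp780b (r = 0.98), Tbc1d2b, Clec4g, Slc49a3 and Plxnc1 (0.97 each), and Siglec1, Dnase1l3 and Tlr13 (0.96 each). Siglec1 and Tlr13, a receptor for bacterial RNA, are macrophage genes, and Clec4g and Dnase1l3 were on the list of sinusoidal endothelial cell markers. After group means were taken away, the leading genes were Cdh5 (r = 0.97), Aqp1 and Stx3 (0.96 each), Plpp1, Arf2, Eng and Tlr13 (0.95 each) and Pecam1 (0.93). Cdh5, Aqp1, Eng and Pecam1 are known endothelial genes.

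Other genes of the same cells were examined next, beginning with 30 further genes of Kupffer cells and macrophages. After FeSO4 without DEX, 15 of the 30 were lower and 1 was higher, with a median LFC of -0.50. The shares over all genes were 27.3% lower and 27.2% higher. The smallest LFCs were those of Siglec1, the sialic acid receptor CD169 (LFC -2.01, SE 0.34, edgeR FDR 0.00024), and Fcgr1, the high-affinity IgG receptor (LFC -1.81, SE 0.29, edgeR FDR 0.00016). Siglec1 went from 312 to 405 normalized counts in NaCl/PBS mice to 46.4 to 111 in FeSO4/PBS mice. The largest were those of Hfe, an iron-sensing protein also made by hepatocytes (LFC 0.70, SE 0.13, edgeR FDR 0.00043), and Cd68, a lysosomal protein of macrophages (LFC 0.20, edgeR FDR 0.51). After DEX in NaCl mice, 3 of the 30 were lower and 1 was higher, with a median LFC of -0.25, where 7.15% of all genes were lower and 6.5% higher. The lower count was 1 without NaCl/PBS mouse 2 or NaCl/DEX mouse 2 and 5 without FeSO4/PBS mouse 1, and the higher call was lost without any single NaCl mouse.

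Of 12 transcription factors active in macrophages, 5 were higher and 5 lower after FeSO4, with a median LFC of -0.38. The shares over all genes were 27.2% higher and 27.3% lower. Runx1, a regulator of blood cell development (LFC 3.07, SE 0.27, edgeR FDR 7.5e-07), and Id3, required for Kupffer cell development (2.02, SE 0.19, edgeR FDR 1.3e-06), rose most, and Maf fell (-0.96, SE 0.16, edgeR FDR 0.00018). Nr1h3, which encodes the Kupffer cell regulator LXRα, was lower too (-0.89, SE 0.11, edgeR FDR 2.1e-05). Hepatocytes and endothelial cells also express some of these factors. After DEX in NaCl mice, 2 were higher and 4 lower, where 6.5% of all genes were higher and 7.15% lower. The lower count of these factors was 2 without NaCl/PBS mouse 2 or 3, NaCl/DEX mouse 1 or 3, or FeSO4/DEX mouse 3. Maf rose, with an LFC of 1.09 (SE 0.15, edgeR FDR 3e-04). Id3 (-1.96, SE 0.2, edgeR FDR 2.1e-05) and Zeb2, a factor of Kupffer cell identity (-1.03, SE 0.17, edgeR FDR 0.00088), fell. Nr1h3 and Zeb2 were chosen for mention after their values had been seen.

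Growth factors and niche ligands of Kupffer cells were tested for 8 of 9 listed genes, and Csf2 had 0 reads in every library. After FeSO4, 1 was higher and 1 lower, with a median LFC of -0.14, where 27.2% of all genes were higher and 27.3% lower. The Notch ligand Dll4 fell (LFC -1.93, SE 0.35, edgeR FDR 0.00038) and the Notch ligand Jag1 rose (0.86, SE 0.21, edgeR FDR 0.0039), while Il34 (-0.58, edgeR FDR 0.1) and Gdf2, which encodes BMP9 (0.19, edgeR FDR 0.22), did not pass the test. Csf1, the main ligand of the Csf1r product and named after its values had been seen, had an LFC of -0.40 (edgeR FDR 0.23) after FeSO4. After DEX in NaCl mice, 5 of the 8 were lower and 1 was higher, with a median LFC of -0.73. Of all genes, 7.15% were lower and 6.5% higher. The lower count of the 8 was 2 without NaCl/DEX mouse 1 or 3, and 3 without NaCl/PBS mouse 2 or 3 or NaCl/DEX mouse 2. The higher count was 0 without NaCl/PBS mouse 1 or 2 or NaCl/DEX mouse 1 or 3, and 2 without FeSO4/PBS mouse 1. Csf1 went from 225 to 599 normalized counts in NaCl/PBS mice to 124 to 157 in NaCl/DEX mice (LFC -1.42, SE 0.28, edgeR FDR 0.0039). Without NaCl/PBS mouse 2, the highest control, this LFC was -0.88 and still passed the test.

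Activation genes of macrophages were tested for 18 of 25 listed genes, and 10 were higher and 1 lower after FeSO4, with a median LFC of 0.90. The shares over all genes were 27.2% higher and 27.3% lower. Trem1, an amplifier of inflammatory signals (LFC 4.66, SE 0.58, edgeR FDR 1.5e-05), and the neutrophil-attracting chemokine Cxcl2 (4.08, SE 0.73, edgeR FDR 0.00056) had the largest LFCs. Both passed the low-count filter through the FeSO4 groups, since Trem1 had 0 to 5 and Cxcl2 0 to 28 reads per NaCl library. The Cxcl2 LFC was 7.35 without NaCl/PBS mouse 2, the control that held most of its reads. With a minimum of 10 counts in every library, 5 activation genes were higher in place of 10. On leaving out single mice, 7 to 14 were higher, with 7 without NaCl/PBS mouse 3 and 14 without NaCl/PBS mouse 2. Tlr4, the receptor for bacterial lipopolysaccharide, fell (-1.05, SE 0.31, edgeR FDR 0.011), and Trem2, a lipid receptor, had an LFC of -1.38 (edgeR FDR 0.069). Other cells of the liver, neutrophils among them, also make several of these genes. After DEX in NaCl mice, 7 were lower and 2 higher, with a median LFC of -1.24, where 7.15% of all genes were lower and 6.5% higher. With a minimum of 10 counts in every library, 2 activation genes were lower in place of 7. The higher count was 0 to 3 on leaving out single mice.

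Genes of heme and iron recycling were all tested (14), and 8 were higher and 1 lower after FeSO4, with a median LFC of 0.58. The shares over all genes were 27.2% higher and 27.3% lower. Hmox1, which degrades heme (LFC 6.02, SE 0.26, edgeR FDR 3.3e-09), and Fth1, the ferritin heavy chain (1.48, SE 0.19, edgeR FDR 2.6e-05), rose most. Slc40a1, the iron exporter ferroportin of macrophages and hepatocytes, fell (-1.94, SE 0.14, edgeR FDR 1.2e-07), from 3503 to 4061 normalized counts in NaCl/PBS mice to 844 to 1032 in FeSO4/PBS mice. Slc11a1, an iron transporter of the phagosome that stood also on the list of further macrophage genes, had an LFC of -0.33 (edgeR FDR 0.13).

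Markers of other cells that the liver could hold were followed in the same comparison, FeSO4/PBS against NaCl/PBS, and their part in the fall of the Kupffer cell markers was not tested. The counts of these lists stand beside 27.2% of all genes higher and 27.3% lower. Neutrophil markers were higher for 7 and lower for 0 of 9 tested genes (12 listed), with a median LFC of 2.83 and a summed level of 142 to 326 normalized counts in NaCl/PBS mice and 960.3 to 1164 in FeSO4/PBS mice. Il1r2 (LFC 5.19, edgeR FDR 1.6e-07) and Ngp (4.33, edgeR FDR 0.00022) had the largest LFCs, over 0 to 5 and 0 to 4 reads per NaCl library, so that both passed the low-count filter only through the FeSO4 groups. With a minimum of 10 counts in every library, 2 neutrophil markers were called in place of 7. Csf3r (-0.06, edgeR FDR 0.86) and Mmp9 (0.57, edgeR FDR 0.33) had the smallest LFCs. Ltf, a granule gene, was at 0 in NaCl/PBS mice, and Ly6g, Ngp and Camp were at 0 in NaCl/DEX mice. Monocyte markers had 1 higher and 1 lower of 6 tested genes (10 listed; 1 to 2 lower on leaving out single mice), with a median of -0.02 and sums of 286 to 348 and of 338 to 416. Plac8 rose (0.86, edgeR FDR 0.00093) and the chemokine receptor Ccr2 fell (-1.78, edgeR FDR 0.0025), while Vcan (0.80, edgeR FDR 0.26) and Ly6c2 (-0.57, edgeR FDR 0.49) did not pass the test.

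Since both injections entered the peritoneum, markers of peritoneal macrophages were included. Of 7 tested genes (9 listed), 1 was higher and 0 were lower, with a median LFC of 0.17. The called gene was Gata6, the defining factor of these macrophages (LFC 2.20, edgeR FDR 1.5e-05), and Garnl3 (0.68, edgeR FDR 0.37), Naip1 (-0.15, edgeR FDR 0.83) and Cav1 (-0.59, edgeR FDR 0.2) did not pass the test. The list summed to 34530 to 43270 normalized counts in NaCl/PBS mice and 43860 to 53830 in FeSO4/PBS mice, of which Fn1, a gene of hepatocytes as well, took 94.4% and 94.2%.

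Sinusoidal endothelial cell markers were lower for 6 and higher for 2 of 12 genes, where 27.3% of all genes were lower and 27.2% higher. The list had a median LFC of -0.57 and sums of 9939 to 11390 in NaCl/PBS mice and 8077 to 9963 in FeSO4/PBS mice. Gpr182 (-1.96, edgeR FDR 4.9e-06) and the growth factor receptor Kdr (-1.89, edgeR FDR 0.00017) were lowest, and Lyve1 (2.83, edgeR FDR 4.8e-07) and the junction protein gene Cdh5 (1.02, edgeR FDR 0.00046) were highest. Stellate cell markers were higher for 3 and lower for 1 of 10 genes (6 higher without FeSO4/PBS mouse 1, 1 with library size alone, and 27.2% of all genes higher), with a median of 0.22 and sums of 8293 to 8636 and of 9352 to 13070. Ecm1 (0.76, edgeR FDR 6.1e-05) and Dcn (0.60, edgeR FDR 0.0011) rose, Lrat fell (-1.31, edgeR FDR 0.0058), and Des (-0.09, edgeR FDR 0.8) did not pass the test.

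Lymphocyte and dendritic cell markers were lower for 4 and higher for 0 of 12 tested genes (16 listed), with a median LFC of -0.45. Of all genes, 27.3% were lower and 27.2% higher. On leaving out single mice, 1 to 4 of the list were lower and 0 to 1 higher. With a minimum of 10 counts in every library, 0 were lower. The list summed to 187 to 262 in NaCl/PBS mice and 133 to 165 in FeSO4/PBS mice. The B cell gene Ms4a1 (-2.79, edgeR FDR 0.037) and the plasmacytoid dendritic cell gene Siglech (-1.94, edgeR FDR 0.027) fell, from mean levels of 15.4 and 15.6 normalized counts. The Ms4a1 call did not survive the loss of NaCl/PBS mouse 1 (edgeR FDR 0.1) or 3 (0.087) or FeSO4/PBS mouse 2 (0.092) or 3 (0.11), and the Siglech call without NaCl/PBS mouse 1 (0.1) or FeSO4/PBS mouse 2 (0.11) or 3 (0.07). Cd3e (1.27, edgeR FDR 0.054) and Cd4 (0.24, edgeR FDR 0.77) did not pass the test, and Ncr1 was at 0 in FeSO4/PBS mice. Hepatocyte markers were higher for 5 and lower for 0 of 12 genes, with a median of 0.33, beside 27.2% of all genes higher. Tat (2.48, edgeR FDR 2.5e-07) and Ass1 (0.89, edgeR FDR 0.014) rose, the Ass1 call being lost without NaCl/PBS mouse 2 (0.06) or FeSO4/PBS mouse 1 (0.055). Apob (-0.30, edgeR FDR 0.12) and Cyp2e1 (-0.38, edgeR FDR 0.064) did not pass the test.

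The same lists were examined in the comparisons with DEX. In FeSO4/DEX against FeSO4/PBS, no gene of any list was called, as for the markers. In FeSO4/DEX against NaCl/DEX, 11 of the 30 further macrophage genes were lower and 3 higher (median LFC -0.32), 5 of 12 sinusoidal endothelial cell markers were lower and 2 higher (-0.41), and 8 of 9 neutrophil markers were higher (3.45). In the same comparison 20.9% of all genes were lower and 22.4% higher. On leaving out single mice, the list counts were 8 to 14 and 1 to 4, 4 to 6 and 0 to 2, and 6 to 8. With a minimum of 10 counts in every library, 3 neutrophil markers were higher in place of 8. Ly6g, Ngp and Camp were at 0 in NaCl/DEX mice, so that such genes could pass the low-count filter only through other groups. Macrophage activation genes were higher for 13 and lower for 2 of 18 tested genes (median LFC 3.1). Of the 25 listed, 6 were at 0 in NaCl/DEX mice. Leaving out single mice gave 11 to 13 higher and 1 to 2 lower, and 10 counts in every library 4 higher and 1 lower. Heme and iron genes had 8 higher and 1 lower of 14 (0.52), and macrophage transcription factors 5 higher and 3 lower of 12 (0.27). The remaining lists had 0 to 4 higher and 0 to 2 lower calls with all mice. In NaCl/DEX against NaCl/PBS, 7.15% of all genes were lower and 6.5% higher. Of 9 neutrophil markers, 1 was lower and 0 were higher, with a median LFC of -0.97 and summed levels of 97.7 to 131 normalized counts. The lower count was 0 without NaCl/PBS mouse 2 or NaCl/DEX mouse 1 and 2 without NaCl/PBS mouse 3. Of 12 sinusoidal endothelial cell markers, 2 were lower and 1 higher (-0.18), and of 12 hepatocyte markers 3 were higher and 0 lower (0.21). Heme and iron genes had 2 lower and stellate cell markers 1 lower call (medians -0.05 and 0.01), and monocyte, peritoneal macrophage, and lymphocyte and dendritic cell markers had 0 calls in edgeR (medians -0.98, 0.09 and -0.65), with 0 to 2 calls in a direction on leaving out single mice.

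**Figure D5:**
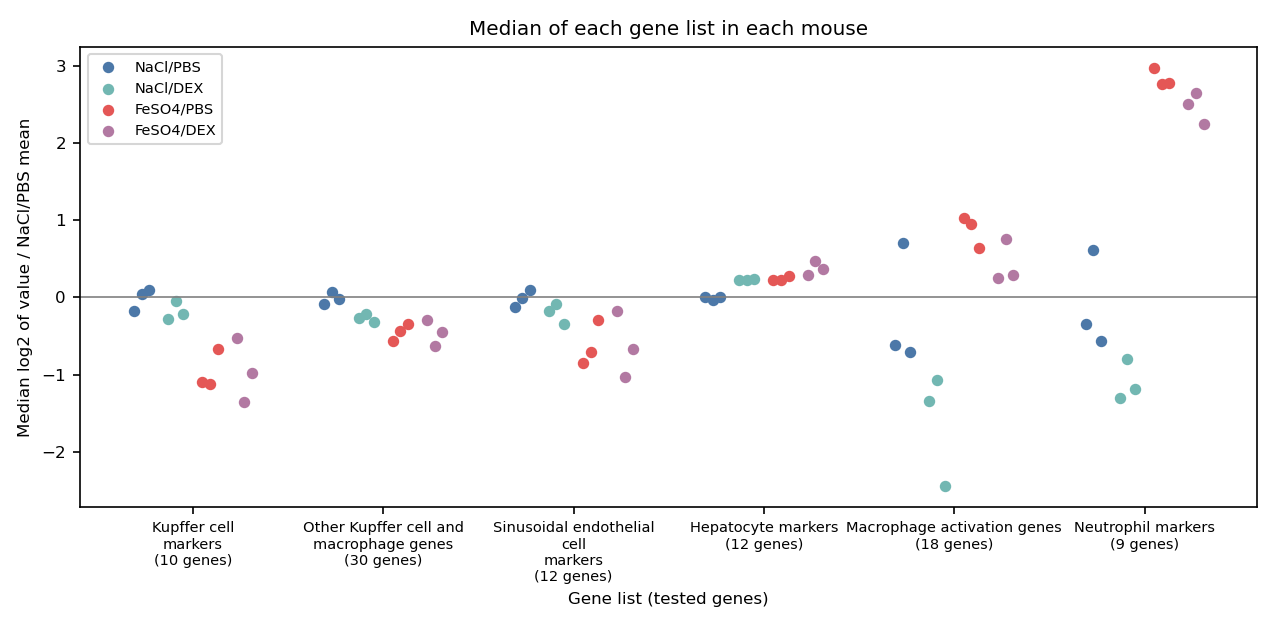
Median of each gene list in each mouse, on the log2 scale relative to the NaCl/PBS mean of each gene. Points are single mice in the 4 groups. The Kupffer cell markers of the 6 FeSO4 mice lie between -1.35 and -0.53, the sinusoidal endothelial cell markers between -1.03 and -0.17, and the neutrophil markers between 2.24 and 2.97.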

How the data were processed

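Livers of 12 mice in 4 groups of 3 were sequenced. The authors used TruSeq stranded mRNA libraries and single-end reads, FastQC, STAR 2.7.10b on mm39, and counted reads per gene. The values they deposited are raw counts for 55414 Ensembl genes, of which 30401 were 0 throughout, and the strand setting of the counts is not given in the sources used here. Nothing shows whether same-numbered mice were handled together. The p-values set differences between groups against the spread between mice treated alike, estimated from all 12 libraries.

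From these counts, symbols and positions were taken from GENCODE vM39 (54749 genes matched). edgeR 4.0.16 (R 4.3.3, limma 3.58.1) fitted 1 quasi-likelihood model to all 12 libraries with a mean per group, after its low-count filter (13857 genes) and TMM scaling (factors 0.871 to 1.16). LFCs used a prior count of 0.125, FDRs are Benjamini-Hochberg values over all tested genes, and calls needed an FDR of 0.05 or less with no minimum LFC. Intervals cover 95%. The fit was tested on simulated data. DESeq2 1.42.0 was an alternative test, and figures were drawn with Python 3.11.15 and matplotlib 3.10.9. The number of mice and, for genes with few reads such as Spic, the depth limit the precision.

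The 10 markers and 12 further gene lists were chosen with earlier results of these data known. All markers were described, with the 2 largest and 2 smallest LFCs of each list after FeSO4, and the 8 genes most like the markers, except that 1 item is not reported here. Nr1h3, Zeb2 and Csf1, and genes at 0, were picked with their values in view. Alternatives were DESeq2, its size factors, library size alone, no filter, a minimum of 10 counts per library, a replicate block, each comparison fitted alone, an LFC beyond 1, and each mouse left out.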

Additional observations from a re-analysis of the deposited data

How the results depend on the processing

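The counts of Kupffer cell markers called were 6 to 8 lower in FeSO4/PBS against NaCl/PBS (7 with all mice) when single mice were left out, 0 to 1 lower in NaCl/DEX against NaCl/PBS (1), 5 to 9 lower in FeSO4/DEX against NaCl/DEX (6), and 0 in the other results. With an LFC beyond 1 required, 4 and 3 markers were lower in the 2 FeSO4 comparisons. Without a filter on low counts, 9 markers were lower in each FeSO4 comparison (Cd163, edgeR FDR 1.3e-05, and Spic, 0.012, added in the first, and Vsig4, 0.013, Timd4, 0.002, and Folr2, 0.04, in the second), 1 marker was higher after DEX in NaCl mice (Cd163, LFC 0.55, edgeR FDR 0.0036) and 1 had a negative difference between the DEX responses (Cd163, -0.75, edgeR FDR 0.01). With NaCl/DEX and NaCl/PBS fitted alone, 2 were lower (Csf1r added, edgeR FDR 0.037). The cause of these shifts was not tested. DESeq2 and its size factors gave 7 and 8 lower markers in the FeSO4 comparisons.

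Scaling by library size alone moved the median LFC of all genes after FeSO4 from -0.02 to -0.34 and that of the markers from -0.95 to -1.26, with all 10 markers lower. The share of higher genes among all calls went from 49.9% to 28.2%, from 47.6% to 25.8% after DEX in NaCl mice, from 51.7% to 34.2% in FeSO4/DEX against NaCl/DEX, and from 48.3% to 63.7% for the difference between the DEX responses. Cd68, Gdf2 and Cd4, which had not passed the test, changed sign (-0.11, -0.13 and -0.09). On leaving out single mice, sign changes without a call came for Cd68 (range -0.22 to 0.47), Csf1 (-0.66 to 0.13), Naip1 (-0.89 to 0.2), Csf3r (-0.24 to 0.27), Des (-0.27 to 0.11) and Cd4 (-0.09 to 0.67). Of 1594 recomputed LFCs in all, 12 changed sign, 21 lost a call and 54 gained one.

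With the replicate number as a block, 7 markers were lower in FeSO4/PBS against NaCl/PBS, 1 in NaCl/DEX against NaCl/PBS and 7 in FeSO4/DEX against NaCl/DEX (Vsig4 added, edgeR FDR 0.037). The deviations of same-numbered mice from their group means had correlations of -0.13 to 0.19, with 3 of 18 over 0.1, and the numbers were not taken as pairs. For 4 of 12 libraries, the mean correlation with libraries of other groups was highest for their own number, among 3 numbers.

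List counts moved by more than 1.5 times in 212 of 1920 recomputed values. With an LFC beyond 1, 6 of the 30 further macrophage genes were lower (15 otherwise), and 3 macrophage transcription factors were higher and 1 lower (5 and 5). With library size alone, 10 endothelial markers were lower (6), and 5 heme and iron genes were higher and 5 lower (8 and 1). With 10 counts in every library, 5 activation genes and 2 neutrophil markers were higher in FeSO4/PBS against NaCl/PBS (10 and 7).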
